A study of Drosophila melanogaster with 2 samples.

Results

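Su(var)2-10, the SUMO E3 ligase of the PIAS family in Drosophila melanogaster, held reproducible peaks at 147 of 1947 long non-coding RNA (lncRNA) genes. The members were the genes whose symbol starts with "lncRNA:" in the Ensembl annotation and whose body, extended by 250 bp on each side, holds the summit of a reproducible peak. They account for 201 of the 2942 reproducible peaks, or 6.83%. Peaks were counted by summit, and the 201 fall in 173 regions when overlapping peaks are joined. A member was called shared-start when any of its annotated transcript starts lay within 500 bp of a protein-coding transcript start on either strand, and stand-alone otherwise. There were 109 stand-alone and 38 shared-start members. The prefix "lncRNA:" is left out of symbols below.

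The series profiled chromatin by ChIP-seq with an anti-GFP antibody in a stable transgenic line that expresses Su(var)2-10 with GFP at the C-terminus. Whole embryos, both sexes mixed and 0 to 24 h old, formed 1 group of 2 biological replicates, numbered 2 and 3. No untagged or other genotype was compared here, so what the tag or the antibody alone binds was not measured, and a mixture of tissues and stages cannot be resolved into cell types. Read depth is unknown, and the intervals given are 95% Wilson intervals that cover counting error only.

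The lists give peaks, not RNA, so whether an lncRNA was transcribed in these embryos was not measured. Su(var)2-10 directs the attachment of SUMO, a small protein modifier, to other proteins, and is known in flies for its part in heterochromatin and in the piRNA-guided silencing of transposons. Many lncRNA genes are short and carry a number in place of a name. A few have well known roles, in dosage compensation, in the heat shock response, as source of piRNAs or as host of microRNAs. An lncRNA often starts close to a protein-coding gene, and a peak at such a pair cannot be assigned to one of them.

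Below are the 200 bp around the strongest summit of 6 members, chosen because they show 3 of the 4 strongest stand-alone members (Vinr, CR31840, CR46036), a strong shared-start member (CR44149), the microRNA host of highest signal (CR31044) and the piRNA cluster precursor (flam). Each is the sense strand of the lncRNA gene, 5′ to 3′, from the RefSeq Release 6 assembly (dm6), with the summit in the middle. Capitals mark exact matches, on either strand, to any of 8 motifs. These are TATCGATA (the DNA replication-related element), GGTCACAC (the core of the M1BP site), GAGAG (the GAGA element), CAGGTA (the core of the Zelda site), GCCATT (the core of the Pho site), CAGCTG (an E-box), CACACA (a simple repeat) and TATAAA (the TATA box).
Vinr (chrX:12751113-12751312, plus strand): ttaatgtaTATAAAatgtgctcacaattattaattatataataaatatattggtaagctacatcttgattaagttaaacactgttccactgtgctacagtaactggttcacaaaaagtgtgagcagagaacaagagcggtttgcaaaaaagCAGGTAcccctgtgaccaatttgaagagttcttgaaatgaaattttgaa
CR31840 (chr2L:14023982-14024181, minus strand): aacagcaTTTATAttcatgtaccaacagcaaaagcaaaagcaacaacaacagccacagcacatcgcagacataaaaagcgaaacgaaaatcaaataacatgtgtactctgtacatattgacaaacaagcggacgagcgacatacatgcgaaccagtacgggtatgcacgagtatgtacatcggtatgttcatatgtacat
CR46036 (chr3R:17700464-17700663, plus strand): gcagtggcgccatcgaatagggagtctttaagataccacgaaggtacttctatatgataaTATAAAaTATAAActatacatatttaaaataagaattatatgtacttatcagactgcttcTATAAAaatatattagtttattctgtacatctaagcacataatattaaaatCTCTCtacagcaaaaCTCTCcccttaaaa
CR44149 (chr2L:9568657-9568856, minus strand): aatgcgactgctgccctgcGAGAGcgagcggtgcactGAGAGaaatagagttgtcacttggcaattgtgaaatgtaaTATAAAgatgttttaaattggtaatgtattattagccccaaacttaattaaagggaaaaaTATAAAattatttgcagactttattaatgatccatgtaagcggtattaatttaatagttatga
CR31044 (chr3R:29214342-29214541, plus strand): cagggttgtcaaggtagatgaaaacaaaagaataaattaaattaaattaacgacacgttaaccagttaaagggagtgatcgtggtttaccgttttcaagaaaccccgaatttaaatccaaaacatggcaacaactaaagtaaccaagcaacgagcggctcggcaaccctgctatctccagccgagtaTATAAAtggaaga
flam (chrX:21631668-21631867, plus strand): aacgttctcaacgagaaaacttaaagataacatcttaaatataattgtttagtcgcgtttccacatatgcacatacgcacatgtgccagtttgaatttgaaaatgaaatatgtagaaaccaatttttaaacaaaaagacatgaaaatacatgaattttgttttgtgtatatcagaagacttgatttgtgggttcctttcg

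The windows are rich in A and T: the GC content was 32% for Vinr, 40% for CR31840, 28.5% for CR46036, 33% for CR44149, 39.5% for CR31044 and 30.5% for flam. A TATAAA match lies in 5 of the 6 windows, and the flam window holds none of the 8 motifs. Over all 201 member windows TATAAA was in 37.8%, so the 6 windows do not stand for the members. In CR31044 the match on the sense strand spans 33 to 28 bp upstream of the annotated start. In CR46036 there are 3 TATAAA matches between 217 and 152 bp upstream of the start, and in Vinr the single match lies 1227 bp downstream of the start, inside the gene. These are letter matches and not measured binding sites.

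Of all lncRNA genes, 7.55% held a reproducible summit (interval 6.46 to 8.81), against 14.4% of protein-coding genes in the same window (2012 of 13986, interval 13.8 to 15). Within 250 bp of a start of the gene itself, the shares were 2.88% of lncRNA genes (56 of 1947) and 9.07% of protein-coding genes (1269 of 13986). These shares describe how the members were chosen and were not tested. By construction, a longer body has more room for a summit. Members had a median length of 813 bp and ranged from 201 to 239347 bp, and lncRNA genes with no peak had a median of 651.5 bp.

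Divided by length, lncRNA genes were not uniformly below protein-coding genes. Under 500 bp, 6.27% of lncRNA genes (37 of 590) and 1.94% of protein-coding genes (9 of 465) held a summit. From 500 to under 1000 bp the shares were 4.83% of lncRNA genes and 3.67% of protein-coding genes. From 1000 to under 3000 bp they were 9.43% of lncRNA genes and 10.2% of protein-coding genes. Of genes with 3000 to under 10000 bp, 13.5% of lncRNA genes and 19.1% of protein-coding genes held one. At 10000 bp or more the shares were 40% of 50 lncRNA genes (interval 27.6 to 53.8) and 34% of 1986 protein-coding genes (interval 31.9 to 36.1). The intervals of the 2 gene kinds overlapped in every length class but the shortest.

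**Figure D1:**
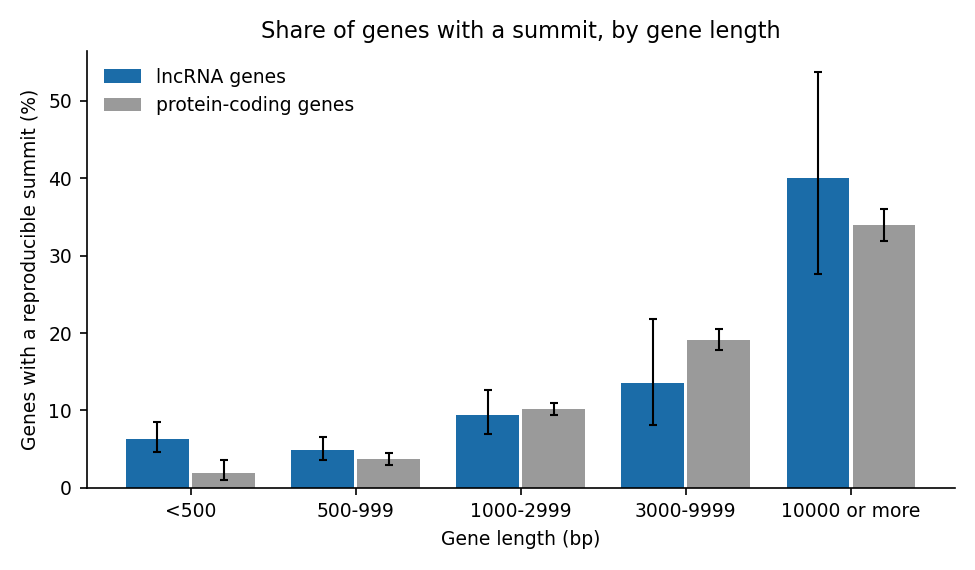
Share of genes with a reproducible summit in the body extended by 250 bp (y axis, percent), by gene length (x axis, bp), for lncRNA genes (blue, left) and protein-coding genes (grey, right). Bars start at 0 and error lines are 95% Wilson intervals. The lncRNA bar is 6.27% in the shortest class and 40% in the longest.

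By chromosome arm, members made up 7.25% of lncRNA genes on 2L (38 of 524), 10.8% on 2R (32 of 295), 4.94% on 3L (22 of 445), 7.98% on 3R (34 of 426) and 8.75% on X (21 of 240). The intervals of 2R (7.79 to 14.9) and 3L (3.29 to 7.37), the highest and lowest of these shares, did not overlap. Shares of protein-coding genes and of all reproducible peaks were not computed by arm, and gene lengths were not matched. The difference was not tested and is not read as a trait of lncRNA genes. None of 14 lncRNA genes on chromosome 4 was a member (interval up to 21.5%), nor was the single one on Y. The share over all lncRNA genes, 7.55%, lies inside the interval of chromosome 4.

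The deposited signal is a score of the authors with no unit. The reproducible peaks are those of highest pooled signal, so the members were selected on pooled signal and summit position, and both are given as a description. Each gene is described by its strongest peak. The stand-alone members ran from 129 to 1413 with a median of 207, and the shared-start members from 129 to 821 with a median of 201. All reproducible peaks had a median of 195. At the threshold, the lowest members were CR42736 (129.02), CR43704 (128.94) and CR46257 (128.90). The lncRNA genes just outside it were CR42862 (128.2), CR44498 (125.1) and CR45052 (124.5). Members held 3 of the 10 reproducible peaks of highest signal and 10 of the 100 highest. Ranks 4 and 6 among them are summits of the same interval, at Vinr. Member peaks make up 6.83% of all reproducible peaks (201 of 2942), and these counts were not tested against that share.

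**Figure D2:**
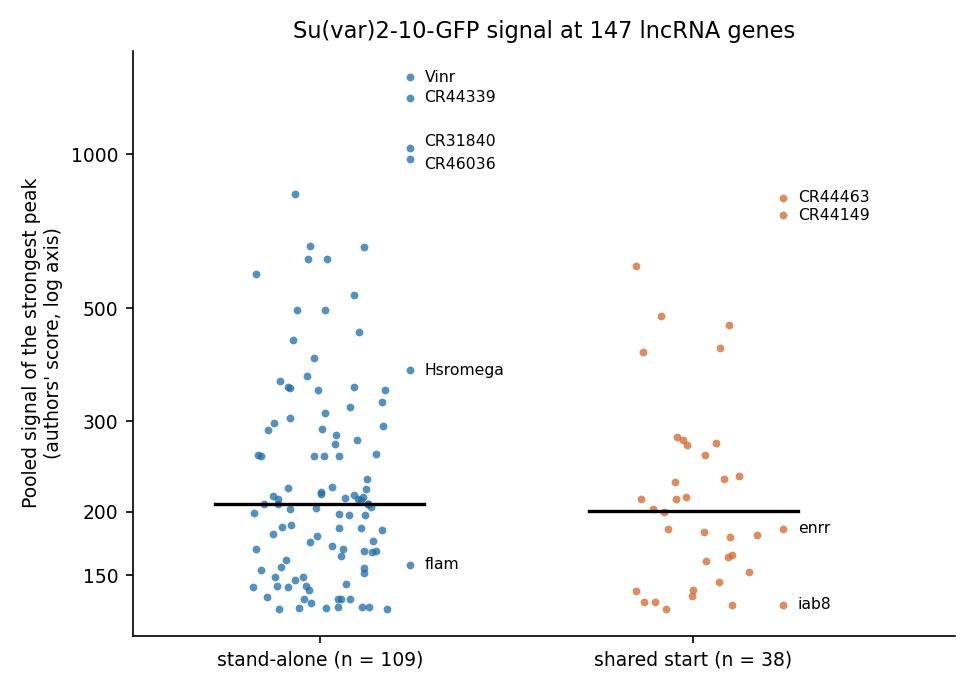
Pooled signal of the strongest peak of each member (y axis, authors' score, log axis) for 109 stand-alone and 38 shared-start lncRNA genes. Each point is a gene, horizontal spread has no meaning apart from setting labelled genes to the right, and black lines are medians (207 and 201). Most genes lie between 129 and 300, with a tail led by Vinr at 1413.

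The strongest stand-alone members carried some of the highest signals in the series. Vinr, an RNA known to be induced in virus infection, held 3 summits in the extended body of its gene at X:12749894-12752350. The peak at X:12750824-12751635 has 2 summits, with pooled signals of 1413 (rank 4 of 2942) and 1259 (rank 6), both in an exon. For the first, replicate 2 gave a signal of 802 and replicate 3 gave 701, ranks 4 and 3 among the 30000 candidate peaks of each replicate. For the second, replicate 2 gave 505 and replicate 3 gave 591. Both replicates thus placed the first summit among their 5 highest. A further summit, 834 in the pooled list, lay inside CR44619, an overlapping lncRNA gene on the same strand. It was just past the 3′ end of Vinr and counted for Vinr through the 250 bp extension. It had 457 in replicate 2 and 379 in replicate 3. CR44619 held another summit of 199, with 177 in replicate 2 and no summit within 100 bp in replicate 3. The nearest protein-coding start to the strongest summit, that of CG4004, was 4896 bp away.

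CR44339, on 2R, reached 1288 (rank 5) at 145 bp upstream of its start, with 658 in replicate 2 and 659 in replicate 3. It ranked 5 in the replicate 2 list and 6 in the replicate 3 list. The nearest protein-coding start was that of Psc, which encodes a Polycomb group protein, at 4228 bp. CR31840, on 2L, reached 1027 (rank 14) at 17 bp downstream of its start, with 555 in replicate 2 and 477 in replicate 3. It ranked 14 in both replicate lists as well, and a second summit of 176 lay 190 bp upstream of the start.

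CR46036 and CR46035 are both inside an intron of osa, which encodes a subunit of a SWI/SNF chromatin remodelling complex and is transcribed from the opposite strand. CR46036 had a pooled signal of 979.8 at 177 bp upstream of its start, with 530.1 in replicate 2 and 453 in replicate 3, and a second summit of 348 at 26 bp downstream of the start. CR46035 had a pooled signal of 625 at 702 bp downstream of its start, with 308 in replicate 2 and 296 in replicate 3. The start of osa itself was 13953 bp from the CR46035 summit.

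The next stand-alone members lay closer to coding genes or hosted microRNAs. CR44522, on 3L, had a pooled signal of 659.8, with 324 in replicate 2 and 334 in replicate 3. Its summit was 490 bp downstream of its own start and 215 bp from the start of Ldh, which encodes lactate dehydrogenase. CR44120, on 2L, had a pooled signal of 625, with 341 in replicate 2 and 293 in replicate 3, and its summit was 353 bp downstream of its own start and 163 bp from that of SLC5A11. Both count as stand-alone because their own starts are 705 and 516 bp from a coding start, yet their summits were nearer to the coding start than to their own.

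The remaining stand-alone members among the 12 strongest had pooled signals of 657 (CR31044), 583 (CR45128, within an intron of the transcription factor gene Adf1), 530.4 (CR45531, within an intron of CG14434) and 496 (CR43626). CR45128 had 258 in replicate 2 and 309.7 in replicate 3, and CR45531 had 315 in replicate 2 and 201 in replicate 3. In rank, CR45128 stood at 198 in the replicate 2 list and 96 in the replicate 3 list, and CR45531 at 119 and 335.

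Hsromega, the heat-inducible RNA that organises nuclear omega speckles, held 3 summits near its 5′ end at 3R:21296127-21317836. The strongest lay 160 bp downstream of a start and had a pooled signal of 378 (rank 380), with 176 in replicate 2 and 207 in replicate 3. The others had pooled signals of 136 at 133 bp upstream and 218 at 1146 bp downstream of a start. No reproducible summit lay in the rest of its 21710 bp.

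flam, the precursor of the flamenco piRNA cluster that silences retrotransposons in ovarian follicle cells, held a single summit 123 bp upstream of its annotated start at X:21631891, in the window printed above. Its pooled signal was 157 (rank 2090), replicate 2 gave 65.8 (rank 2758), and replicate 3 had no summit within 100 bp. The peak was thus matched in 1 of the 2 replicate lists. No other reproducible summit fell in the 158841 bp of the gene. The nearest coding start was that of DIP1, 1620 bp away.

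By their definition, shared-start members sit at pairs of neighbouring or overlapping starts. The nearest protein-coding start was on the opposite strand for 31 of 38 (81.6%) and on the same strand for 7. The strongest summit lay within 500 bp of a protein-coding start at 25 of the 38 (65.8%, interval 49.9 to 78.8), against 10 of the 109 stand-alone members (9.17%, interval 5.06 to 16.1), a difference that follows in part from how the classes were drawn. Among all lncRNA genes with a shared start, 14.6% were members (38 of 261, interval 10.8 to 19.4), and among all stand-alone lncRNA genes 6.47% were (109 of 1686, interval 5.39 to 7.74). Shared starts made up 25.9% of members and 12.4% of the 1800 lncRNA genes with no peak.

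The strongest shared-start member, CR44463 on 2R, had a pooled signal of 821 (rank 46), with 452 in replicate 2 and 362 in replicate 3. Its summit lay 138 bp from the start of mRpL41, which encodes a mitochondrial ribosomal protein, and 440 bp from its own. CR44149, on 2L, had a pooled signal of 759.9, with 355 in replicate 2 and 396 in replicate 3. Its summit lay 28 bp downstream of its own start and 133 bp from that of brwl.

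CR44357 is an annotated RNA of 239347 bp on X whose body overlaps 16 protein-coding genes, and it was the member with the most peaks. It held 12, with pooled signals from 137 to 603. The highest had 335 in replicate 2 and 274 in replicate 3 and lay 745 bp from the start of brk, which encodes a repressor of Dpp signalling targets. The next, at 536, lay 246 bp from the start of CBP. The peak closest to the start of CR44357 was 68691 bp away, so all 12 count for this lncRNA through its span alone.

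The other shared-start members among the 12 strongest overlapped or neighboured genes of varied function. CR44974 (483 pooled, with 248 in replicate 2 and 238 in replicate 3) overlaps CycE on the opposite strand, which encodes cyclin E. CR45593 (462 pooled, with 271 in replicate 2 and 214 in replicate 3) overlaps Ama on the opposite strand, which encodes a cell adhesion protein. CR30055 (417 pooled, with 214 in replicate 2) overlaps Sin3A, which encodes a corepressor subunit, and CR13130 (411 pooled, with 173 in replicate 2) overlaps bib, both on the opposite strand. Replicate 3 had no summit within 100 bp of the strongest summit of either gene, but it did at their weaker ones. The second summit of CR13130, 337 pooled, had 86.6 in replicate 2 and 224 in replicate 3. The other summits of CR30055, 185 and 164 pooled, had 145 and 109 in replicate 3 and no summit within 100 bp in replicate 2.

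The last 5 of the 12 had lower pooled signals, from 258 to 279.6. They were CR45793, which overlaps Hph, CR45168, which overlaps sti, CR45618, whose summit was 441 bp from the start of prtp, CR44209, 174 bp from that of Cyt-b5, and CR44814, 266 bp from that of the ribosomal protein gene RpL12. CR44814 had 169 in replicate 3 and no summit within 100 bp in replicate 2.

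Among members with a name, enrr shares a start with elav, the neuronal RNA-binding protein gene. It had a pooled signal of 185 at 559 bp downstream of that start, with 101 in replicate 2 and 82.4 in replicate 3. iab8, the RNA of the Bithorax complex that hosts mir-iab-8, had a pooled signal of 131 (rank 2843), with 65.0 in replicate 2 and 64.8 in replicate 3. Its summit lay in an intron 10678 bp downstream of the nearest start. Of 38 lncRNA genes with a name other than a CR number, 5 held a summit (13.2%, interval 5.75 to 27.3): Vinr, Hsromega, flam, enrr and iab8. The share over all lncRNA genes, 7.55% (147 of 1947), lies inside that interval. Hsromega, flam, enrr and iab8 are also longer than 10000 bp, a length class in which 40% of 50 lncRNA genes held a summit.

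The summit of many members was not at the start of the lncRNA gene. By the rule, a summit could lie up to 250 bp before a gene, anywhere in its body, or up to 250 bp past its end. The share at the start and the spread downstream thus depend in part on gene length, and neither was tested. Any summit lay within 250 bp of an own start in 56 of 147 members (38.1%, interval 30.6 to 46.2). This was 37 of 109 stand-alone members (33.9%) and 19 of 38 shared-start members (50%). In the stand-alone genes 24 of those 37 nearest summits were upstream, with a median position 97 bp upstream of the start. In the shared-start genes 9 of 19 were upstream, with a median 22 bp downstream. The median distance of the strongest summit from an own start was 524 bp for stand-alone and 363.5 bp for shared-start members.

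**Figure D3:**
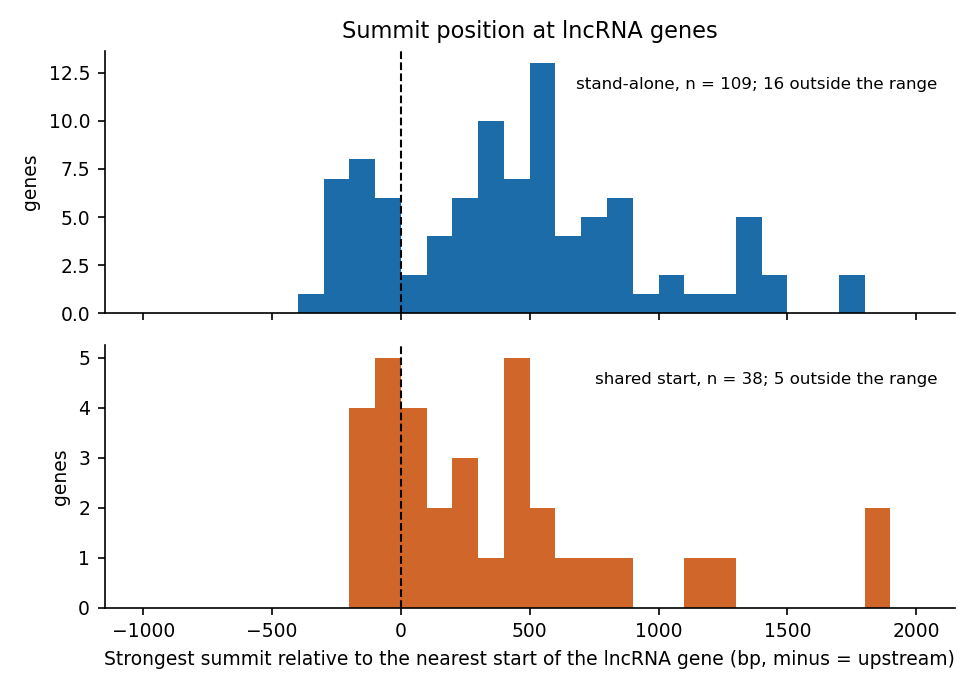
Position of the strongest summit relative to the nearest annotated start of the lncRNA gene (x axis, bp in bins of 100, minus is upstream) as numbers of genes (y axis), for 109 stand-alone (top) and 38 shared-start members (bottom). The dashed line is the start. Positions outside -1000 to 2000 bp, 16 stand-alone and 5 shared-start genes, are not drawn. Of the drawn genes, CR43626 lies farthest upstream, at -387 bp, and the downstream side extends past 1000 bp. The rule admits no summit more than 250 bp before a gene, so the longer downstream side follows in part from it.

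For stand-alone members the strongest summit was in an exon of the lncRNA gene in 39 cases, in an intron in 16 and in the flanking 250 bp in 54. For shared-start members it was in an exon in 12, in an intron in 14 and in a flank in 12. No member peak had its summit in protein-coding sequence (0 of 201, interval up to 1.88%), although 80 of the 201 lay within a protein-coding gene body. Member peaks were chosen at non-coding genes, and this share was not computed for the other reproducible peaks. It is therefore not read as a trait of the members. The bodies of 68 of 147 members overlapped a protein-coding gene (46.3%), against 502 of 1800 lncRNA genes with no peak (27.9%). Members were also longer, with an upper quartile of 2545 bp against 1039.75 bp. A longer body has more room for an overlap, and lengths were not matched here.

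Some members were neighbours. Counting members within 10 kb of each other as a locus, the 147 genes formed 127 loci, 15 of which held at least 2 members. The one with the most members, 5, spans 3R:16208192-16214957. CR45639 and CR45640, on opposite strands there, share a peak of signal 257, and CR45637 and CR45638 have a peak of 212 as their strongest. Over all members, 13 had a strongest peak that another member also held, so the members are not independent of each other. Members with at least 2 peaks numbered 42, with overlapping peaks counted separately, and the 20 members of 10000 bp or longer held 44 of the 201 peaks.

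MicroRNA hosts were read as lncRNA genes whose body holds a pre-miRNA gene on the same strand. Of 34 such genes 11 were members (32.4%, interval 19.1 to 49.2). These hosts are long, with a median of 6116.5 bp. Among genes of 1000 bp or longer, 11 of 32 hosts held a summit (34.4%, interval 20.4 to 51.7), against 60 of 517 lncRNA genes that host none (11.6%, interval 9.12 to 14.7). Lengths were not matched further.

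The host with the highest signal was CR31044, which holds mir-279 and mir-996. Its pooled signal of 657 lay 120 bp upstream of its start, with 349 in replicate 2 and 309.6 in replicate 3. CR43626, the host of mir-282, had a pooled signal of 496, with 295 in replicate 2 and 214 in replicate 3. CR45911, which holds mir-2c, mir-13a and mir-13b-1, had a pooled signal of 432, with 218.5 in replicate 2 and 205 in replicate 3. The scale of the scores differs between lists. In rank, the 3 summits stood at 90, 140 and 301 in the replicate 2 list and at 97, 276 and 321 in the replicate 3 list.

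CR43334, the host of the growth-promoting microRNA bantam, held 4 summits with pooled signals of 188, 253, 305 and 169. Its strongest had 137 in replicate 2 and 161 in replicate 3 and lay 1034 bp from an annotated start. CR43651, the host of mir-14, had its strongest summit 3 bp from its start, with a pooled signal of 258, 121 in replicate 2 and 153 in replicate 3. CR43459, the host of mir-277 and mir-34, had a pooled signal of 197, with 98.4 in replicate 2 and 89.2 in replicate 3. This placed it near the median of the reproducible peaks.

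The hosts of mir-31b (CR43836, 174 pooled), mir-276a (CR46006, 167 pooled) and mir-8 (CR43650, 147 pooled) were lower. CR46006 had no replicate 3 summit within 100 bp of its strongest summit, while its second, 142 pooled, had 62.9 in replicate 2 and 68.9 in replicate 3. For its single summit, CR43650 had no match in replicate 2. Hsromega and iab8, given above, complete the 11. A summit within 250 bp of an own start was present in 4 of them.

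Hosts with no reproducible summit included let7C, which holds the developmental timing microRNA let-7, CR45361, the host of the muscle microRNA mir-1, CR45916, the host of mir-9a, and CR44504, the host of the mir-309 cluster. Their best candidates in the pooled list had signals of 47.3 for let7C, 66.6 for CR45361 and 93.1 for CR45916, and CR44504 had none. All were below the lowest reproducible signal of 129. None of 3 lncRNA genes that hold a snoRNA gene on their strand was a member (interval up to 56.1%). That interval includes 7.55%, the share over all lncRNA genes, so nothing is read from this count.

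Several well known lncRNA genes were outside the set as well. roX1 and roX2 encode the RNAs of the dosage compensation complex that coats the male X. Their best candidates had pooled signals of 67.9 for roX1 (q-value 0.285) and 118.2 for roX2 (q-value 0.0437). The roX2 candidate had 36.0 in replicate 2 and 69.0 in replicate 3 and lay 1430 bp downstream of the start, in the flank beyond the 3′ end. bxd, an RNA of the Bithorax complex, had a candidate of 110.3, acal one of 113.6, sphinx one of 57.2, CRG one of 47.1 and yar one of 41.4. cherub and noe had no candidate. These genes were not shown to lack the protein, since candidates below the threshold include peaks and background. Over all lncRNA genes with no reproducible summit, 547 of 1800 held a candidate summit (30.4%).

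**Figure D4:**
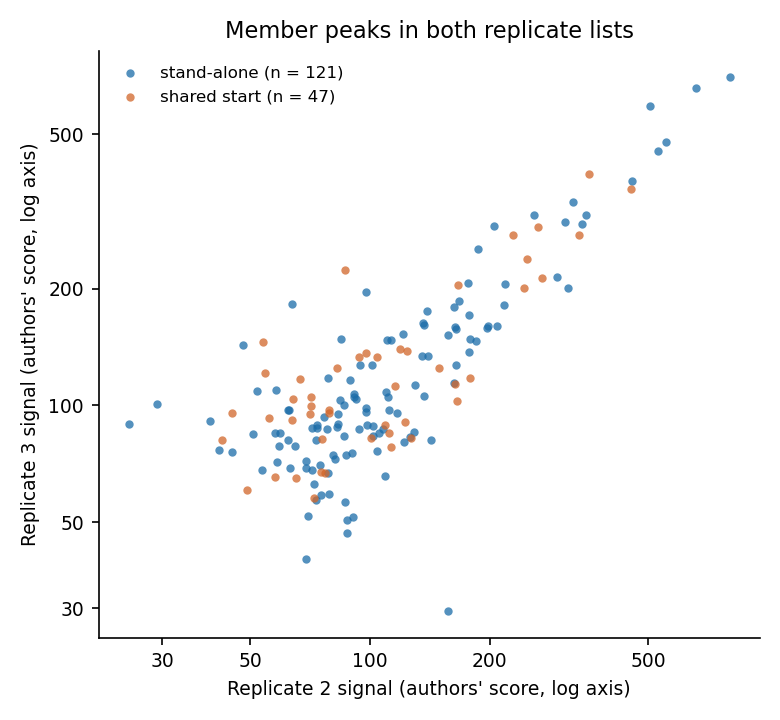
Signal of each member peak in replicate 2 (x axis) and replicate 3 (y axis), both the authors' score on log axes, for the 168 peaks with a summit within 100 bp in both replicate lists. Blue points are the 121 peaks held by a stand-alone member and orange points the 47 held by shared-start members alone. The highest peaks are high in both replicates, and those below about 100 scatter widely.

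Both replicates entered the pooled list, so their lists describe the members and do not test them. A summit within 100 bp was present in both replicate lists for 168 of 201 member peaks (83.6%, interval 77.8 to 88.1), against 2446 of 2741 other reproducible peaks (89.2%, interval 88 to 90.3). No member peak was missing from both. The shares were close when the best peaks of each replicate alone were counted, as many as there are reproducible peaks. Among the best of both replicates were 123 of 201 member peaks (61.2%, interval 54.3 to 67.7). Of the other reproducible peaks, 1657 of 2741 were (60.5%, interval 58.6 to 62.3). Over the 168 member peaks in both full lists, chosen from a list that pools both replicates, Spearman's rho between the replicate signals was 0.676. Replicate 2 signals ran from 24.7 to 802 with a median of 97.5 over 179 peaks, and replicate 3 signals from 29.5 to 701 with a median of 102 over 190 peaks.

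Taking the 2942 best peaks of each replicate alone in place of the reproducible set, replicate 2 gave 145 lncRNA genes with a summit and replicate 3 gave 152. Of the members, 126 (85.7%) were in the replicate 2 set and 131 (89.1%) in the replicate 3 set. Both sets shared 116 genes, of which 113 were members. Just 3 members were in neither.

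Around the summit, member peaks and other reproducible peaks had equal median base composition. In the 200 bp window the median GC content was 33.5% for member peaks and 33.5% for the other reproducible peaks, against 38.5% for candidate peaks that did not pass and 41% around the starts of lncRNA genes with no peak. The centre had a lower GC content than the flanks, centred 600 bp to each side, in 162 of 201 member peaks (80.6%, interval 74.6 to 85.5). This was so for 81.5% of other reproducible peaks, 58.4% of candidates that did not pass and 48.9% of the starts with no peak.

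**Figure D5:**
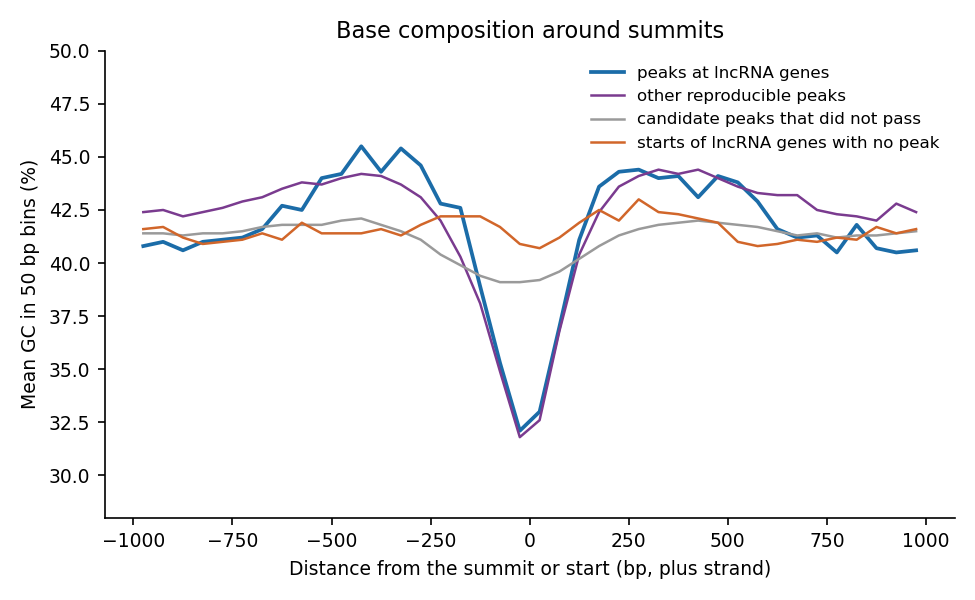
Mean GC content in 50 bp bins (y axis, percent, drawn from 28 to 50) by distance from the summit, or from the gene start where there is no peak (x axis, bp along the plus strand). Lines are peaks at lncRNA genes (blue), other reproducible peaks (purple), candidates that did not pass (grey) and starts of lncRNA genes with no peak (orange). The first 2 lines reach 32.1% and 31.8% at the summit, while the others stay near 39% to 43%.

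Of the 8 motifs searched, TATAAA was in 37.8% of member windows (interval 31.4 to 44.7), against 41.7% of other reproducible peaks, 28.4% of candidates that did not pass and 26.1% of starts with no peak. It is itself made of A and T, so it moves with the base composition given above, whose part in this share was not tested. GAGAG was in 21.4% of member windows, 23.2% of other reproducible peaks and 20.3% of starts with no peak. GCCATT was in 8.96% of member windows, 8.39% of other reproducible peaks and 13.5% of starts with no peak. Among candidates that did not pass, GAGAG was in 21.3% and GCCATT in 12.7%.

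CACACA was in 14.9% of member windows and 14.8% of other reproducible peaks, CAGCTG in 7.46% of member windows and 7.11% of the others, and CAGGTA in 2.99% of member windows and 3.87% of the others. TATCGATA was in 1 of 201 member windows (0.498%) and in 60 of 2741 other reproducible peaks (2.19%). GGTCACAC was in none of 201 member windows (interval up to 1.88%) and in 28 of 2741 other peaks (1.02%). Among candidates that did not pass, the shares were 17.5% for CACACA, 7.33% for CAGCTG, 4.17% for CAGGTA, 0.99% for TATCGATA and 0.721% for GGTCACAC. At starts with no peak they were 17.5%, 7.51%, 4.17%, 0.667% and 0.501%, in the same order. Any of the 8 was in 66.7% of member windows and 72% of the others. That share was 66.2% for candidates that did not pass and 64.8% for starts with no peak. Some of these motifs can overlap one another's matches, and none was read as bound.

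Compared with the other reproducible peaks, a smaller share of member peaks lay near a coding start. Within 500 bp of one were 45 of 201 member peaks (22.4%, interval 17.2 to 28.6), against 1406 of 2741 other reproducible peaks (51.3%, interval 49.4 to 53.2). Member peaks were chosen by their position at lncRNA genes, and 1686 of the 1947 lncRNA genes have no start within 500 bp of a coding start. The difference thus follows in part from that choice. The intervals did not overlap, and no test was run. The median signals were close, 199 for member peaks and 195 for the others.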

How the data were processed

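Peak lists of Su(var)2-10-GFP ChIP-seq in 2 replicates of 1 group were used on build dm6. Per the file notes deposited with each sample, the authors called candidate peaks in each replicate and in the pooled replicates against a control, and kept those past an irreproducible discovery rate threshold. Aligner, peak caller and threshold: not given in the sources used here. A signal score for each peak was deposited by the authors with no unit. Scores from different lists are given side by side, but their scale differs between lists and differences in size between lists are not interpreted. Summit offsets and −log10 q-values were read as deposited. The 2942 reproducible peaks were all found in the pooled list of 30000, and each replicate list also held 30000. Read counts were not used, so depth is unknown.

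Gene models were those of Ensembl release 115 (BDGP6.54); sequences were read from RefSeq Release 6, which is dm6, after arm lengths had been checked against the highest peak ends. Gene bodies were extended by 250 bp. Summits matched between lists within 100 bp. Motifs were exact matches on both strands in 200 bp windows. The software was numpy 2.4.6, scipy 1.17.1, pandas 2.3.3 and matplotlib 3.10.9 under Python 3.11.15, and the counting steps were tested on simulated data. No test was run, since the signal chose the members. The members and lists were chosen with earlier results of these data known. Genes named are those with a known role, the 12 highest of each class, members with a name, and the 3 on each side of the threshold. The symbols bft, 20A and IBIN, also listed, had no match with the prefix. The names are those of the annotation, in which 1947 genes carry the prefix. Alternatives covered other extensions, distances, peak thresholds, windows, annotations and single replicates.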

Additional observations from a re-analysis of the deposited data

How the results depend on the processing

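The number of members was 89 with no extension of the gene body and 85 with the peaks below the median signal left out, against 147 as reported. The share of members with a summit at their own start, 38.1% as reported, was 14.3% within 100 bp and 55.1% within 500 bp of the start, 27.3% with bodies extended by 1000 bp and 30.6% with the weaker peaks left out. The share of shared starts, 25.9%, was 18.4% when the outermost start of each gene alone was used. The share of member peaks in both replicate lists, 83.6%, was 58.7% within 50 bp, 96% within 200 bp and 61.2% among the best peaks of each replicate. Any of the 8 motifs was in 41.3% of 100 bp windows and 81.1% of 300 bp windows, against 66.7% at 200 bp. Without replicate 2 or without replicate 3 the median signal was 102 to 103 for stand-alone and 88.9 to 109 for shared-start members, on replicate lists whose scores run lower. The other 47 alternative values of these results stayed within 1.5 times the reported count or within the interval of the reported share or the spread of the reported median. With the RefSeq annotation there were 147 genes with the same symbols. No paired analysis was possible because there is 1 group.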

Other observations

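Another class of non-coding gene gave a similar share: 43 of 503 antisense RNA genes, whose symbols start with "asRNA:", held a reproducible summit in the same window (8.55%, interval 6.41 to 11.3). None of 14 lncRNA genes whose symbols start with "lncRNA:TS" did (interval up to 21.5%, which includes the 7.55% over all lncRNA genes). The share of stand-alone genes was 18 of 25 (72%) among the 25 members of highest signal and 91 of 122 (74.6%) among the rest.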
